A study of Mus musculus with 10 samples.

Results

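The distal ends of 13 mouse autosomes were examined by low-coverage DNA sequencing of male mouse embryonic stem cell (mESC) lines in culture. A window belonged to a distal span when its end lay within 5 Mb of the end of its chromosome, on chromosomes 5, 6, 7, 9, 10, 12, 13, 14, 15, 16, 17, 18 and 19 of mm10. Of the 272566 windows of 10 kb in the deposited table, 6513 were distal (501 on each chromosome), and the other 145207 windows of the same 13 chromosomes served for comparison. The rule for a window used its position and no read count, and the spans were taken up for description with earlier results of these data known.

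The cells were mESC lines of the C57/Bl6 strain, labelled male and kept in 2i medium, in which kinase inhibitors hold the cells in a naive pluripotent state. The 10 libraries came from 2 lines and fell into 5 groups of 2 libraries. The p0 group was taken when the lines were split after derivation, which per the methods had used the modified culture method, so that all groups share that history. The p10 Mulas2019 and p20 Mulas2019 groups were then passaged 10 and 20 times by the standard method, with a split every other day. The p10 Keniry2022 and p20 Keniry2022 groups were passaged 10 and 20 times by the modified method, with daily splits at higher density. As a result p20 Keniry2022 and p10 Mulas2019 are matched by days in culture. Libraries with the same replicate number are labelled as the same line, which the Y reads given below put in doubt for p20 Keniry2022, and with 2 lines the spread within a group is only roughly known. A value is the average over all cells of a culture, so that a small change in every cell and a larger one in some cells cannot be told apart. DNA reads hold no expression, so the identity of the cells could not be checked against marker genes.

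The libraries held between 27270648 and 35354358 reads. One line had almost no reads on the Y chromosome, with 125 to 442 per library in replicate 1 and 10784 to 21001 in replicate 2 of the p0, p10 Mulas2019, p20 Mulas2019 and p10 Keniry2022 groups. In p20 Keniry2022 the order was the opposite, with 14408 reads in the library labelled replicate 1 and 222 in the library labelled replicate 2, and the replicate numbers of these 2 libraries are therefore in doubt. Reads of chromosome 3, which holds no distal span described here, were 0.07 to 0.33 higher (log2, over the other autosomes) than in the p0 library of the same number in all 8 passaged libraries.

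Mouse chromosomes are telocentric, with the centromere next to one telomere, so that each has a single gene-bearing end, the distal one. A telomere is an array of the hexamer TTAGGG that protects the end of the chromosome, and the subtelomere is the stretch just inside it. Subtelomeres are known for repeated sequence, for exchange between chromosome ends and for genes whose activity depends on the distance from the telomere.

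The distal spans end in the telomere repeat. The assembled sequence of each of the 13 chromosomes stops 100000 bases before its stated end, or 150000 on chromosome 6, and the rest is unknown bases. The last window with known sequence held the 12-mer made of 2 hexamers in tandem, searched on both strands, in 13 of 13 spans, with 5 overlapping matches on chromosome 9 and 111 on chromosome 14. Over all distal windows, 101 (1.55%) held this 12-mer, against 644 (0.444%) of the other windows of the same chromosomes and 0.469% of all autosomal windows.

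The distal spans also differ from each other in base composition. As a set they had a GC content of 43.0%, against 41.9% in the other windows, and held 11.6 protein-coding genes per Mb (752 genes), against 8.26. Repeat-masked bases made up 32.6% against 33.5%. Among the spans the GC content went from 37.5% on chromosomes 17 and 18 to 48.1% on chromosome 7, and the gene density from 0.599 per Mb on chromosome 17 (3 genes) to 33.2 per Mb on chromosome 10 (166 genes).

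For an impression of this range, the middle 150 bases are given of the GC-richest and the GC-poorest distal windows without unknown bases among 12 of the spans. The sequence is that of mm10, read 5′ to 3′, and capitals mark the dinucleotide CG.
chr9:121764926-121765075, forward strand: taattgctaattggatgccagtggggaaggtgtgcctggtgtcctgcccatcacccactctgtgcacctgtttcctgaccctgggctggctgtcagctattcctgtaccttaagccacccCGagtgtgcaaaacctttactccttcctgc
chr17:92734926-92735075, forward strand: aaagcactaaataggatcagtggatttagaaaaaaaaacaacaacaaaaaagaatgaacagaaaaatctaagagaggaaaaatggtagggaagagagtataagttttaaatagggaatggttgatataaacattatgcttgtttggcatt
The first stretch lies in the window chr9:121760001-121770000, which overlaps the zinc finger gene Zfp651 and has 59.1% GC and 278 CG dinucleotides. The second lies in the window chr17:92730001-92740000, in which no gene is annotated, with 31.8% GC and 27 CG dinucleotides. The GC-rich window held 175 and 152 reads at p0 (replicates 1 and 2), 102 and 170 at p10 Mulas2019, 194 and 129 at p20 Mulas2019, 171 and 156 at p10 Keniry2022, and 166 and 162 at p20 Keniry2022. The AT-rich window held 49 and 57 reads at p0, 90 and 130 at p10 Mulas2019, 98 and 71 at p20 Mulas2019, 84 and 81 at p10 Keniry2022, and 77 and 86 at p20 Keniry2022. Read totals differ between libraries. Scaled to an equal library total (CPM), the GC-rich window had 5.73 and 4.96 at p0 and 3.74 and 4.81 at p10 Mulas2019. The AT-rich window had 1.61 and 1.86 at p0 and 3.30 and 3.68 at p10 Mulas2019. The GC-rich window held more reads than the AT-rich one in all 10 libraries, with the widest gap at p0 and the narrowest at p10 Mulas2019.

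The first question was how the distal ends as a whole were represented in each library. The ratio of the mean CPM (reads scaled to an equal library total) of distal windows to that of the other windows of the same 13 chromosomes, on a log2 scale, was 0.12 and 0.12 at p0 (replicates 1 and 2; group mean 0.120 ± 0.006, SD, n = 2). It was 0.053 ± 0.0015 at p10 Mulas2019, 0.086 ± 0.002 at p20 Mulas2019, 0.091 ± 0.008 at p10 Keniry2022 and 0.107 ± 0.0002 at p20 Keniry2022 (SD, n = 2 each). The distal ends were above the rest of their chromosomes in all 10 libraries, most at p0 and least at p10 Mulas2019, where no library overlapped those of another group. The p20 Mulas2019 and p10 Keniry2022 libraries lay side by side between them. In linear terms the distal excess was 1.09-fold at p0 and 1.04-fold at p10 Mulas2019. After a correction of each window for its GC content, by a curve fitted to autosomal bins of 1 Mb, it was 1.01-fold to 1.02-fold in all 5 groups. The log2 means were 0.017 to 0.022. Without correction, p0 and p10 Mulas2019 had 0.096 and 0.028 without windows of low level, and 0.194 and 0.033 with medians over windows, where the drop was 0.161 in place of 0.067. GC-corrected bins of 1 Mb, compared by the difference of their mean log2 levels, had the opposite direction, with group means of -0.028 to -0.023. That value differs from the main ratio in the measure as well as in the correction. With chromosomes weighted equally the uncorrected ratio was 0.068 at p0 and 0.043 at p10 Mulas2019. These ratios are a description of the chosen windows and carry no test.

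The average hides spans that lay far apart. Each span was set against the rest of its own chromosome in the same library. At p0 the 13 ratios ranged from -0.74 (chromosome 18) to 0.51 (chromosome 16) in replicate 1 and from -0.74 to 0.50 in replicate 2, with an SD over the spans of 0.435 and 0.422. At p10 Mulas2019 they ranged from -0.30 to 0.26 and from -0.24 to 0.26, with an SD of 0.175 and 0.152. The distal ends were therefore most uneven at p0 and least uneven at p10 Mulas2019. The SD was 0.313 and 0.297 at p20 Mulas2019, 0.341 and 0.304 at p10 Keniry2022, and 0.387 and 0.381 at p20 Keniry2022. The values of p20 Mulas2019 and p10 Keniry2022 overlapped, and those of the other groups did not overlap with any other.

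**Figure D1:**
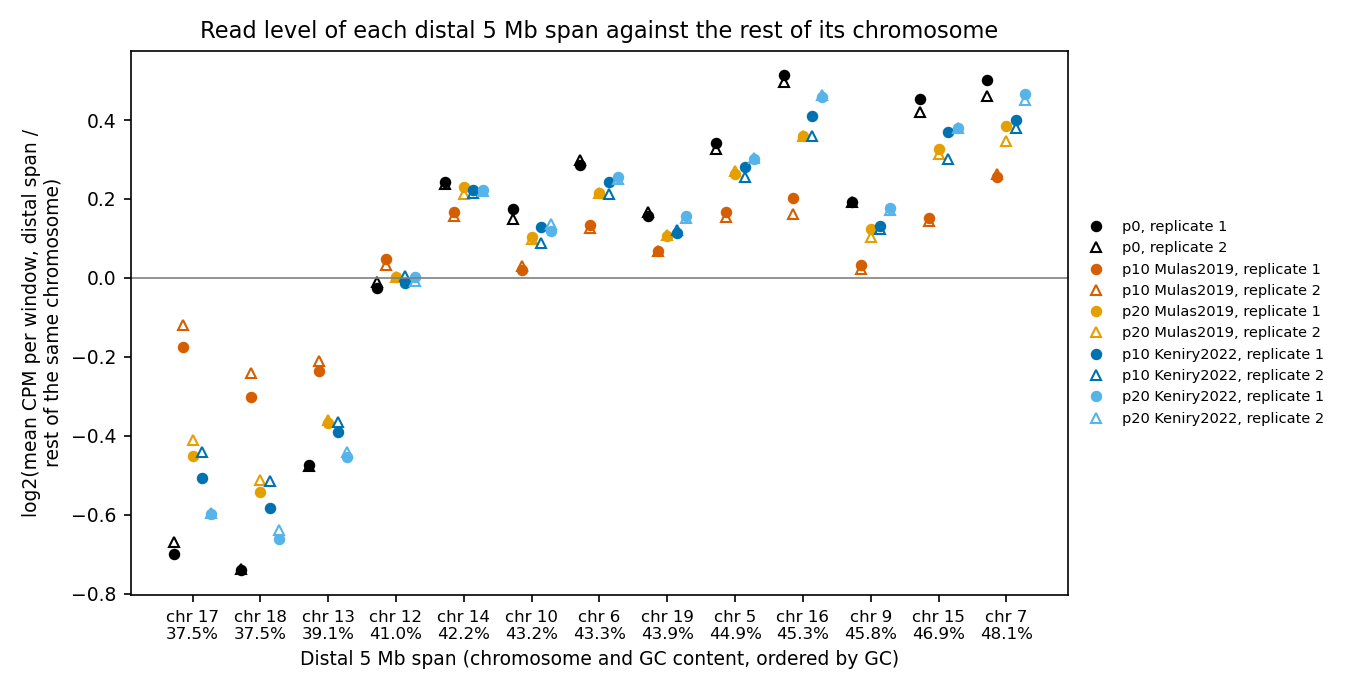
Log2 ratio of mean CPM per window in each distal 5 Mb span to that in the rest of the same chromosome (y axis), for 13 chromosomes ordered by the GC content of the span (x axis). Colours give the group, filled circles replicate 1 and open triangles replicate 2. The p0 libraries lie farthest from 0 (from -0.74 to 0.51) and the p10 Mulas2019 libraries lie closest (from -0.30 to 0.26) in most spans.

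The spans of chromosomes 17, 18 and 13, the 3 with the lowest GC content, were below the rest of their chromosomes in all 10 libraries. They are poor in genes, but hold Socs6, a suppressor of cytokine signalling, and Cd226, an adhesion receptor of lymphocytes (both chromosome 18), and Fgf10, a growth factor of limb and lung buds, and Nnt, a mitochondrial transhydrogenase whose gene is partly deleted in some C57BL/6 substrains (both chromosome 13). On chromosome 17 the level per Mb of known sequence was 261 and 265 CPM at p0 (replicates 1 and 2), 358 and 370 at p10 Mulas2019, 302 and 307 at p20 Mulas2019, 294 and 304 at p10 Keniry2022, and 275 and 278 at p20 Keniry2022. Both p10 Mulas2019 libraries were above all others, and both p0 libraries below all others. On chromosome 18 the level was 245 and 246 CPM per Mb at p0, 334 and 345 at p10 Mulas2019, 282 and 287 at p20 Mulas2019, 274 and 288 at p10 Keniry2022, and 259 and 263 at p20 Keniry2022. On chromosome 13 it was 297 and 296 CPM per Mb at p0, 349 and 353 at p10 Mulas2019, 318 and 317 at p20 Mulas2019, 313 and 319 at p10 Keniry2022, and 298 and 302 at p20 Keniry2022. The order of the groups was the same on all 3 chromosomes, with p20 Mulas2019 and p10 Keniry2022 overlapping.

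The spans of chromosomes 7, 15, 9, 16 and 5, the 5 with the highest GC content, were above the rest of their chromosomes in all 10 libraries. They hold the imprinted cluster with H19, Igf2, Kcnq1 and Cdkn1c (chromosome 7), the Hoxc genes and keratin genes (chromosome 15), the transcription factor genes Ets2 and Erg (chromosome 16), and Cdx2 and Pdx1, regulators of trophectoderm and pancreas (chromosome 5). On chromosome 7 the level was 579 and 562 CPM per Mb at p0 (replicates 1 and 2), 463 and 461 at p10 Mulas2019, 518 and 498 at p20 Mulas2019, 528 and 517 at p10 Keniry2022, and 555 and 550 at p20 Keniry2022. Here the p0 libraries were the highest and the p10 Mulas2019 libraries the lowest. On chromosome 15 it was 551 and 539 CPM per Mb at p0, 449 and 447 at p10 Mulas2019, 503 and 494 at p20 Mulas2019, 521 and 499 at p10 Keniry2022, and 523 and 526 at p20 Keniry2022. On chromosome 16 it was 535 and 529 CPM per Mb at p0, 452 and 441 at p10 Mulas2019, 489 and 487 at p20 Mulas2019, 508 and 494 at p10 Keniry2022, and 516 and 521 at p20 Keniry2022. Chromosomes 5 and 9 had the same order of groups at the extremes, with 515 to 523 and 518 to 520 CPM per Mb at p0 against 444 to 448 and 441 to 448 at p10 Mulas2019. The remaining 5 spans, of middling GC content, differed less between the groups. Those of chromosomes 6, 10, 14 and 19 were also above the rest of their chromosomes in all 10 libraries, and that of chromosome 12 in some. Chromosome 14 had 425 and 428 CPM per Mb at p0 and 417 and 414 at p10 Mulas2019, while chromosome 12 had 376 and 381 at p0 and 399 and 394 at p10 Mulas2019. Chromosome 10 had 443 and 436 against 407 and 409, chromosome 6 had 490 and 495 against 450 and 445, and chromosome 19 had 477 and 480 against 433 and 428.

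Each distal span was next tested as 1 segment of a genome tiled in 5 Mb segments back from each distal end. The test was limma's TREAT on log2 CPM against a minimum fold change of 1.1 (a log2FC of 0.14), adjusted over all 520 segments by the Benjamini-Hochberg method at 0.05. A distal segment held 36599 to 88406 reads per library, so that the counting error was 0.336% to 0.523% of its level. The 2 p0 libraries differed by -0.04 to 0.02 (log2) over the 13 distal segments. For scale, 3 copies of a segment in place of 2 in every cell would raise it by 0.58.

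From p0 to p10 Mulas2019, 8 of the 13 distal segments passed the test (61.5%), against 49.2% of all 520 segments. The 3 AT-rich spans rose (28.7% of all segments did) and the 5 GC-rich spans fell (20.6% did). The log2FC was 0.47 on chromosome 17 (SE 0.017, adjusted p 3.15e-07 in limma), 0.47 on chromosome 18 (SE 0.020, adjusted p 3.6e-07) and 0.24 on chromosome 13 (SE 0.013, adjusted p 2.84e-05). Each rose in both lines, by 0.46 and 0.48, 0.45 and 0.49, and 0.24 and 0.25 in replicates 1 and 2. Of the spans that fell, chromosome 7 was lowest at -0.30 (SE 0.018, adjusted p 1.22e-05 in limma), followed by chromosome 15 with -0.28 (SE 0.018), 16 with -0.25 (SE 0.015), 9 with -0.22 (SE 0.012) and 5 with -0.22 (SE 0.014), whose adjusted p lay between 3.15e-05 and 2.62e-04. In these 5 spans both replicates were also negative, between -0.32 and -0.21. The other 5 did not pass, with log2FC of 0.07 (chromosome 12), -0.04 (chromosome 14), -0.11 (chromosome 10), -0.14 (chromosome 6) and -0.15 (chromosome 19, limma adjusted p 0.162). The median over the 13 distal segments was -0.14, beside 0.01 over all segments and -0.02 over the 288 other segments of the same chromosomes. The 8 called segments were the same in all 10 refits that left out 1 library. In segments of 10 Mb, however, only chromosomes 5, 7, 9, 15 and 16 passed (38.5%, against 41.7% of all 264 such segments), and chromosomes 13, 17 and 18 did not. With each segment centred on its own chromosome, 8 passed as well (50.2% of all segments), with chromosome 6 in place of chromosome 9.

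From p0 to p20 Mulas2019 none of the 13 distal segments passed (0.962% of all segments did), and 2 had an unadjusted p under 0.05 in limma's TREAT, as did 75 of all 520 segments. These were chromosome 17 at 0.21 (SE 0.017, adjusted p 0.0545 in limma) and chromosome 18 at 0.21 (SE 0.020, adjusted p 0.0662). Both lay close to the threshold. They passed with the deposited replicate number as a fixed term in the fit or with each segment centred on its own chromosome, and also without either of the p20 Keniry2022 libraries. Chromosome 17 alone passed with the line as a random block and the replicate numbers of p20 Keniry2022 crossed, and without either of the p10 Mulas2019 libraries. On the other side chromosome 7 had -0.17 (limma adjusted p 0.415) and chromosomes 15 and 16 had -0.13 each. The median was -0.07 over the distal segments and 0.01 over all segments.

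In Keniry2022 conditions the same spans were on the same side of 0 as at p10 Mulas2019, with values closer to 0, and 0 of 13 passed limma's TREAT at p10 (1.15% of all segments) and 0 of 13 at p20 (0.0% of all segments). At an unadjusted p under 0.05 the counts were 2 at p10 (44 of all 520 segments) and 0 at p20 (2 of all 520), and with voom on the recovered reads they were also 0 of 13 after adjustment. At p10 Keniry2022 the extremes were 0.20 on chromosome 18 (SE 0.020) and 0.19 on chromosome 17 (SE 0.017), both with a limma adjusted p of 0.175, and -0.13 on chromosome 7 (SE 0.018). At p20 Keniry2022 they were 0.09 on chromosome 18 (SE 0.020) and -0.05 on chromosome 15 (SE 0.018). All 4 comparisons with p0 use the same 2 p0 libraries.

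The difference between protocols was tested directly. At p10, 2 of the 13 distal segments were lower in Keniry2022 than in Mulas2019 conditions (19.4% of all segments passed in either direction), namely chromosome 17 (log2FC -0.28, SE 0.017, adjusted p 4.9e-04 in limma) and chromosome 18 (-0.27, SE 0.020, adjusted p 8.42e-04). In each line the difference was similar, with -0.28 and -0.28 on chromosome 17 and -0.28 and -0.26 on chromosome 18. In segments of 10 Mb neither passed (13.6% of all such segments did). Chromosome 15 was next, with 0.19 (SE 0.018, limma adjusted p 0.0564). It passed with voom, with the deposited replicate number as a fixed term, with the line as a random block and the replicate numbers of p20 Keniry2022 crossed, with each segment centred on its own chromosome, and without p10 Keniry2022 replicate 2 or either of the p20 Keniry2022 libraries. At p20, 0 of 13 distal segments passed limma's TREAT (0.0% of all segments), 0 had an unadjusted p under 0.05 (0 of all 520), and the values ran from -0.14 on chromosome 17 to 0.12 on chromosome 7.

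Between the cultures matched by days, p20 Keniry2022 and p10 Mulas2019, 8 of the 13 distal segments passed (39.2% of all segments). Chromosomes 17, 18 and 13 were lower in p20 Keniry2022, at -0.40 (SE 0.017), -0.38 (SE 0.020) and -0.23 (SE 0.013). Chromosomes 7, 15, 16, 9 and 5 were higher, at 0.26, 0.23, 0.21, 0.19 and 0.17 (SE 0.012 to 0.018). Each of the 8 had the same sign in both replicates, and they were the same 8 segments that passed from p0 to p10 Mulas2019, a comparison that shares the p10 Mulas2019 libraries. In segments of 10 Mb chromosomes 13, 17 and 18 did not pass here either, and the other 5 did (38.5%, against 31.8% of all such segments). Chromosome 5 no longer passed without either p10 Mulas2019 library, without p20 Keniry2022 replicate 2, with voom, without the line in the fit, or, together with chromosome 9, with each segment centred on its own chromosome.

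The change of a distal span moved with its GC content. From p0 to p10 Mulas2019 the log2FC fell by 0.077 for each percent of GC over the 13 distal segments, and by 0.075 over all 489 autosomal segments. The slopes were -0.036 and -0.036 at p20 Mulas2019, -0.030 and -0.030 at p10 Keniry2022, and -0.012 and -0.013 at p20 Keniry2022, again distal and all autosomal. The correlation with GC content over the distal segments was -0.97, -0.97, -0.96 and -0.91 in the same order. It is a description across 13 sites that share libraries and has no p. At equal GC content the distal spans lay within the cloud of the other autosomal segments.

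**Figure D2:**
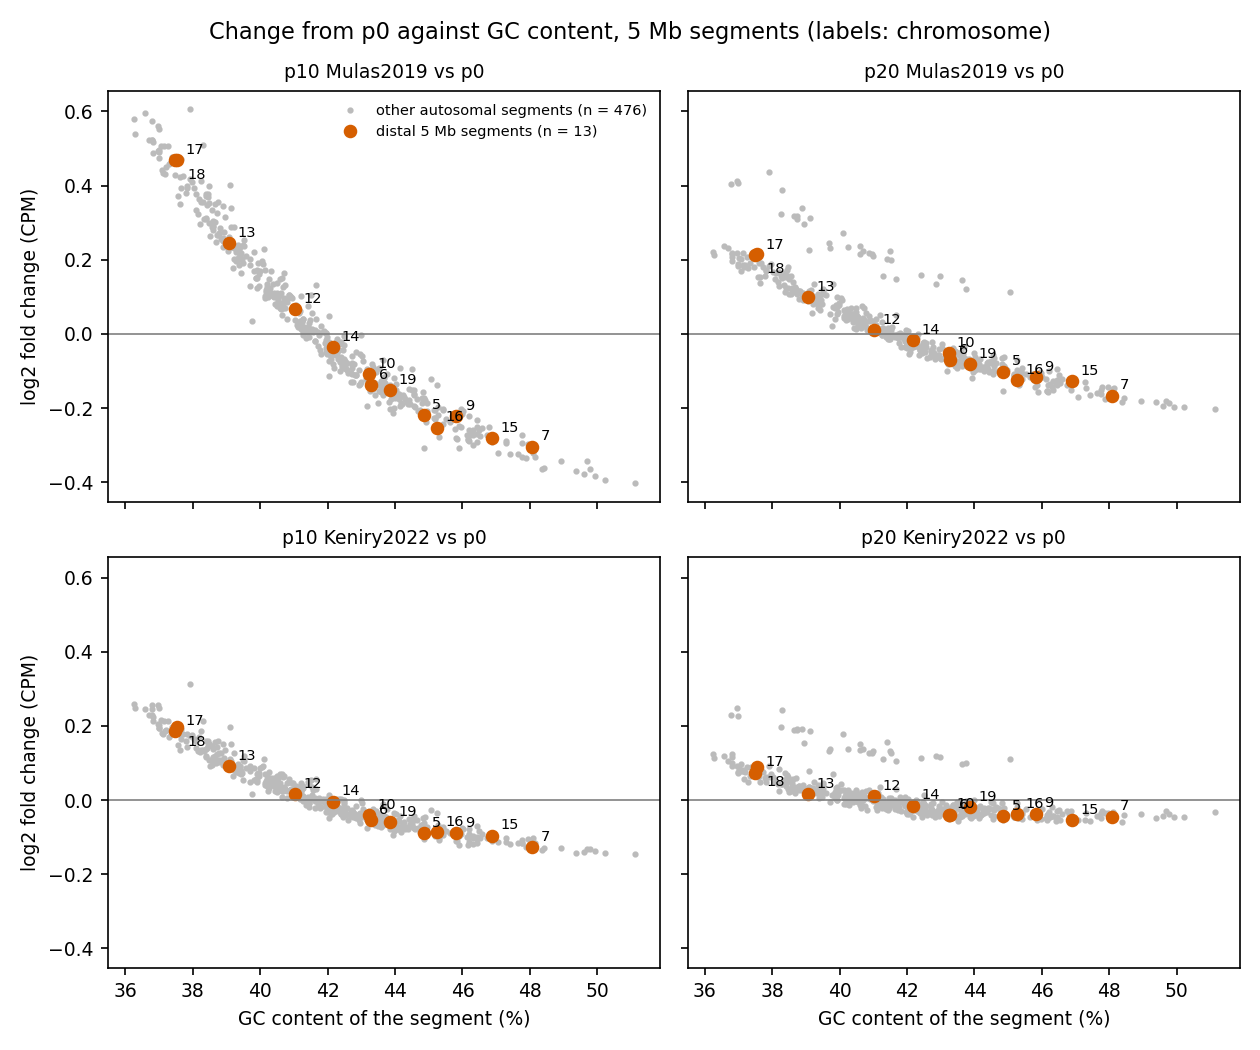
Log2 fold change of CPM from p0 (y axis) against GC content in percent (x axis) for 5 Mb segments, in 4 panels, 1 for each comparison with p0. Orange points are the 13 distal segments with their chromosome, and grey points the other autosomal segments. The distal segments follow the falling band of the others, with slopes from -0.077 per percent GC at p10 Mulas2019 to -0.012 at p20 Keniry2022. The grey points above the band at p20 are mostly chromosome 3, whose reads were higher there.

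After each library was corrected for GC content by a loess curve over autosomal segments, none of the 13 distal segments passed limma's TREAT in any of the 7 comparisons (0.0% of all segments in each). In the comparison of p10 Mulas2019 with p0 the corrected values lay between -0.03 (chromosome 16) and 0.04 (chromosome 18). Among the 8 segments called before correction the signs of chromosomes 7, 9, 13 and 15 turned. None of these turned values passed limma's test with no minimum change (adjusted p 0.107 to 0.988), and that of chromosome 13 was -0.00020 (SE 0.0115). Chromosome 17 kept 0.03 (SE 0.008) of its 0.47, and chromosome 7 went from -0.30 to 0.03 (SE 0.014). With no minimum change in limma's test, chromosomes 17 and 18 still passed at p10 Mulas2019 after the correction (adjusted p 0.027 and 0.0469 in limma), beside 21.5% of all segments. In the other comparisons with p0 that test called 0 of 13 (0.0% of all segments), with 0 to 2 of the 13 at an unadjusted p under 0.05, beside 48 to 125 of all 520. Between the cultures matched by days it called chromosomes 15 and 17, both lower in p20 Keniry2022 (20.2% of all segments passed). For chromosome 15, at -0.03, this is the opposite of the direction before the correction (0.23).

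**Figure D3:**
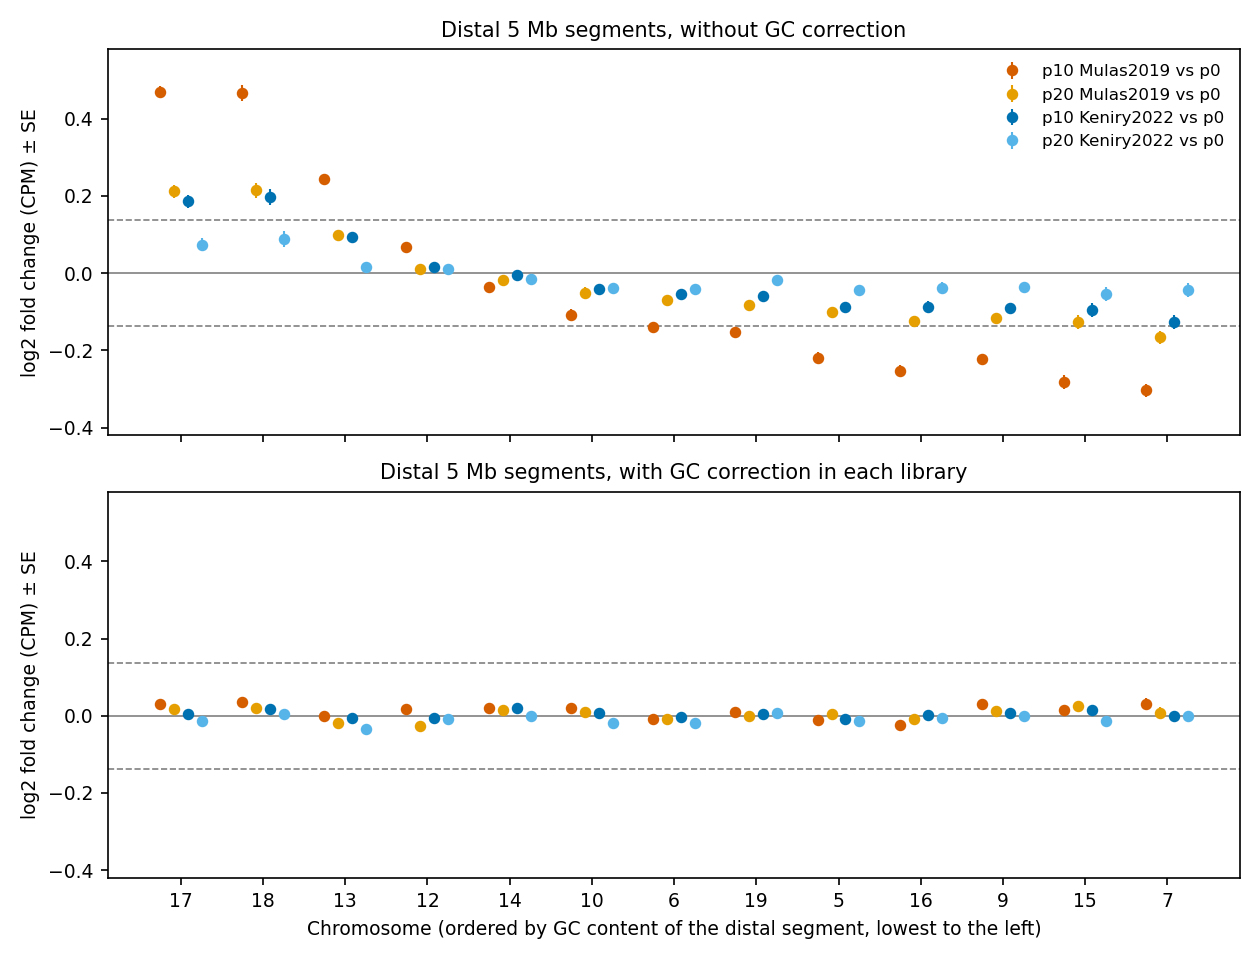
Log2 fold change of CPM from p0 with its standard error (y axis) for the 13 distal segments, ordered by GC content (x axis), without (top) and with (bottom) GC correction. Colours give the comparison and dashed lines mark the minimum fold change of 1.1. Before correction the p10 Mulas2019 values run from 0.47 to -0.30 with rising GC content, and after it all 13 lie between -0.03 and 0.04.

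Within the spans the change also varied with the distance from the end. In 1 Mb bins averaged over the 13 chromosomes, the outermost Mb was 0.13 and 0.12 above p0 (log2) in the p10 Mulas2019 libraries (replicates 1 and 2), and the bin from 3 to 4 Mb was 0.11 below in both. These steps ran against GC content, which was 41.3% on average in the outermost Mb and 44.3% from 3 to 4 Mb. In the other groups the outermost Mb had means of 0.05 at p20 Mulas2019, 0.06 at p10 Keniry2022 and 0.01 at p20 Keniry2022. Farther in, from 5 to 25 Mb, the p10 Mulas2019 means ran from -0.18 to 0.09 over 20 bins, so that the outermost Mb was above that range. Its mean GC content was also below theirs, which was 41.5% to 44.6%. After GC correction the outermost Mb had 0.03 at p10 Mulas2019, and the bins from 5 to 25 Mb had -0.04 to 0.00. It had 0.0009 at p20 Mulas2019, 0.016 at p10 Keniry2022 and -0.0114 at p20 Keniry2022. There the bins from 5 to 25 Mb reached at most -0.006, -0.002 and -0.0116, in the same order. The chromosomes differed widely in the outermost Mb, with an SD of 0.29 over the 13 in each p10 Mulas2019 library.

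**Figure D4:**
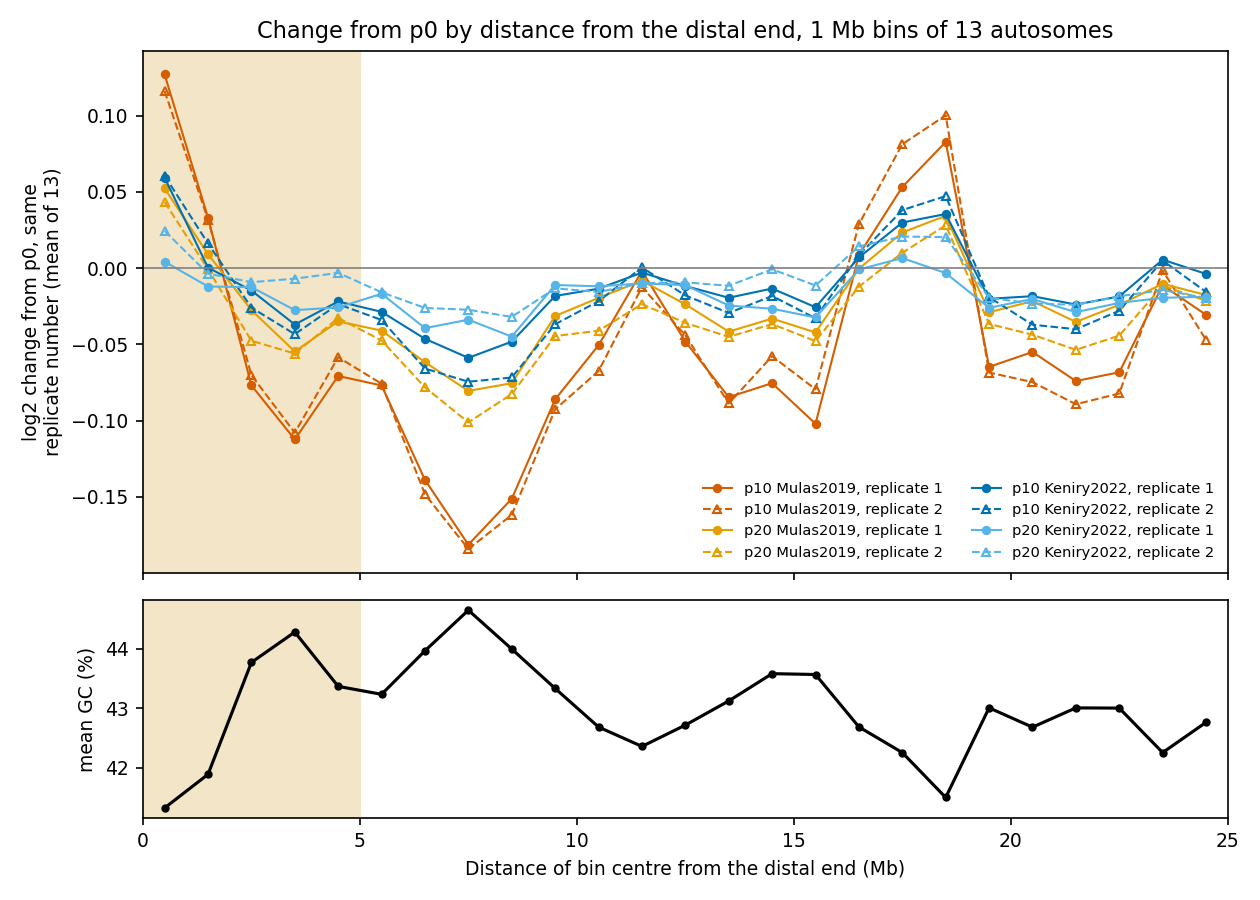
Mean log2 change of CPM from the p0 library of the same replicate number, averaged over 13 chromosomes (top, y axis), and mean GC content in percent (bottom, y axis), against the distance of 1 Mb bins from the distal end in Mb (x axis). Lines are single libraries, and the shaded area is the distal span. The outermost Mb is 0.12 to 0.13 above p0 in the p10 Mulas2019 libraries, with a mean GC content of 41.3%.

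In bins of 1 Mb, 45 of the 65 distal bins passed from p0 to p10 Mulas2019 (58.6% of all bins did). Of these, 18 were higher (33.0% of all bins) and 27 lower (25.5%). The higher bins had a GC content of 36.8% to 39.6% and the lower ones of 43.9% to 49.7%. Of the 752 protein-coding genes of the spans, 61 (8.11%) lay in higher bins and 489 (65.03%) in lower bins, beside 13.4% and 47.4% of the 21437 genes of all bins. Chromosomes 17 and 18 had 5 of 5 bins higher, and chromosomes 7 and 16 had 5 of 5 bins lower. Chromosomes 10 and 14 held bins of both kinds. On chromosome 14 the outermost bin, which holds Fgf14 (an intracellular regulator of sodium channels), was 0.48 higher (SE 0.021), while the bin from 3 to 4 Mb was 0.30 lower (SE 0.019). On chromosome 10 the outermost bin was 0.42 higher (SE 0.031) and the bin with Stat6, a transcription factor of interleukin signalling, was 0.35 lower (SE 0.023). The segment of chromosome 10 as a whole had not passed.

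The highest of the 65 bins at p10 Mulas2019 was chr17:91980001-92980000, with 36.8% GC and no protein-coding gene. It rose by 0.57 on the log2 scale (SE 0.029, adjusted p 1.23e-07 in limma), by 0.53 and 0.61 in replicates 1 and 2, and stood at 0.02 after GC correction. The lowest was the outermost bin of chromosome 7, chr7:144440001-145441459, with 49.7% GC and 13 protein-coding genes. It fell by 0.39 (SE 0.023, adjusted p 1.16e-06 in limma), with -0.42 and -0.35 in the replicates, and stood at -0.02 after GC correction. This bin was also the lowest at p20 Mulas2019 (-0.22, limma adjusted p 0.0389) and at p10 Keniry2022 (-0.16, not passing). The bin chr18:86700001-87700000, with 36.9% GC and 1 protein-coding gene, was the highest at p20 Mulas2019 (0.28, SE 0.027, limma adjusted p 0.0132), at p10 Keniry2022 (0.24, SE 0.027, limma adjusted p 0.0417) and at p20 Keniry2022 (0.13, not passing). The lowest at p20 Keniry2022 was chr10:127690001-128690000 with -0.08.

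The other comparisons called fewer distal bins. At p20 Mulas2019 there were 9 (9.48% of all bins), of which 8 were higher (9.32% of all bins) and 1 was lower (0.157%). At p10 Keniry2022 there were 4 (4.4% of all bins), all of them higher, on chromosomes 12, 14 and 18. At p20 Keniry2022 there were 0 (0.0% of all bins), and 0 also at an unadjusted p under 0.05 in limma's TREAT (17 of all 2543). Between protocols at p10, 28 bins passed (30.4% of all bins), with 12 higher in Keniry2022 (8.53% of all bins) and 16 lower (21.9%), and at p20 there were 0 (0.0% of all bins), with 1 at an unadjusted p under 0.05 (8 of all 2543). Between the cultures matched by days 38 bins passed (49.4% of all bins), 21 higher (19.4%) and 17 lower (30.0%) in p20 Keniry2022. Between protocols at p10 the extremes were chr15:100040001-101040000 (0.24, SE 0.025) and chr17:91980001-92980000 (-0.34, SE 0.029), and at p20 the extremes were chr7:144440001-145441459 (0.19) and chr14:123900001-124902244 (-0.16). Between the cultures matched by days they were the same bins of chromosomes 7 (0.35) and 17 (-0.48). After GC correction 0 of the 65 distal bins passed in each of the 7 comparisons, beside 0.0786% of all bins at p10 Mulas2019 against p0.

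**Figure D5:**
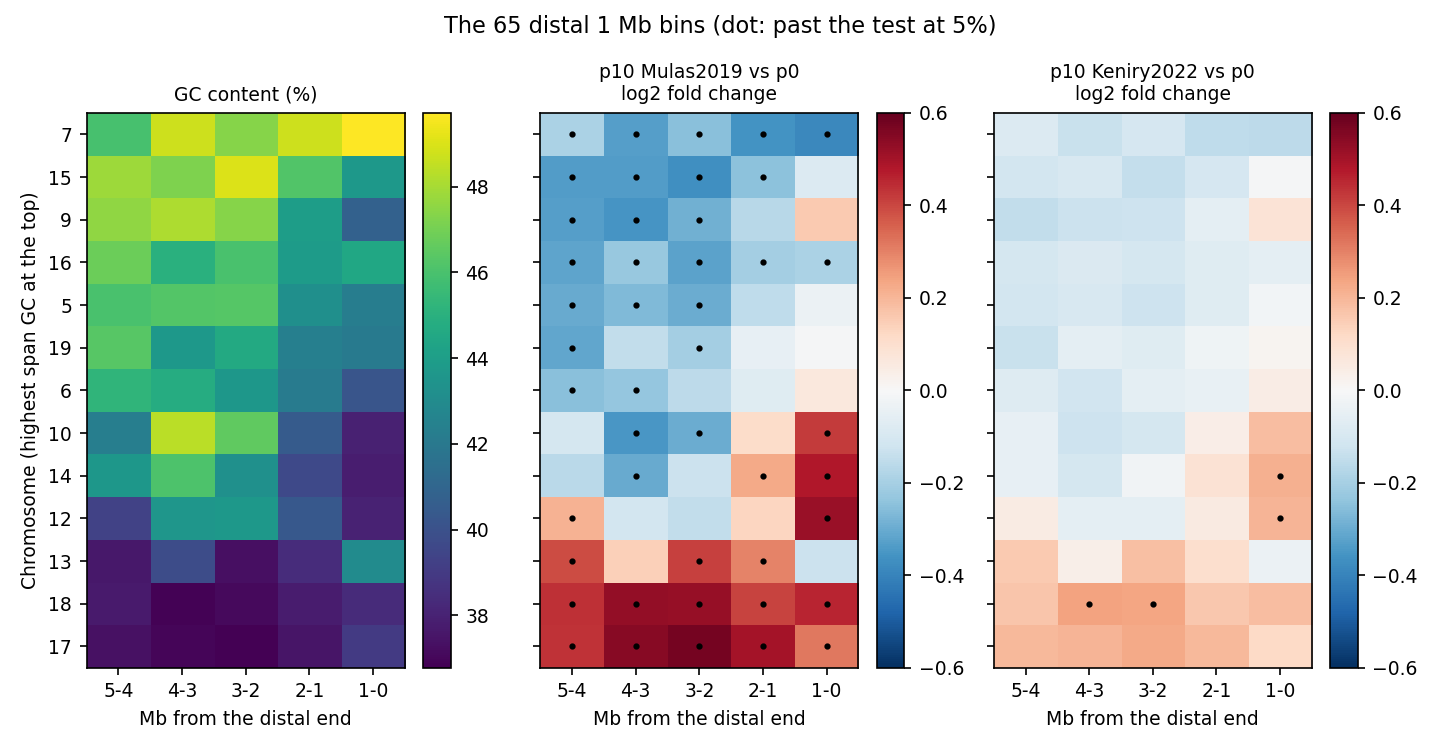
GC content in percent (left) and log2 fold change of CPM from p0 at p10 Mulas2019 (middle) and p10 Keniry2022 (right) in the 65 distal 1 Mb bins. Rows are chromosomes ordered by the GC content of the span, columns the distance from the distal end in Mb, and dots mark bins past the test at 5%. The middle panel has 45 dots (18 higher, 27 lower) and the right panel 4 (all higher).

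Of 34 well-known genes listed as landmarks, 32 started inside the spans, in 21 of the 65 bins, so that neighbours share a value. At p10 Mulas2019, 7 of the 32 lay in higher bins (5 bins) and 18 in lower bins (11 bins), beside 13.4% and 47.4% of the protein-coding genes of all bins and 8.11% and 65.03% of those of the spans, and the median of their values was -0.22, beside -0.15 over the 65 distal bins and 0.01 over all bins. Among the higher bins, that of Fgf10 and Nnt rose by 0.30 (SE 0.020) and that of Socs6 and Cd226 by 0.41 (SE 0.023). The bin of Vipr2, a receptor of vasoactive intestinal peptide, rose by 0.21 (SE 0.022). Falling bins held Krt8, an epithelial keratin (-0.37, SE 0.024), Cdkn1c, an imprinted cell cycle inhibitor (-0.36, SE 0.025), Erbb3, a receptor of neuregulins (-0.30, SE 0.024), and Ets2, Erg and Brwd1 together (-0.32, SE 0.022). The bin with Cdx2, Pdx1 and the VEGF receptor gene Flt1 fell by 0.30 on the log2 scale (SE 0.022), the bin with H19, Igf2 and the potassium channel gene Kcnq1 by 0.25 (SE 0.021), and the bin with Hoxc8 and Sp1 by 0.25 (SE 0.021). Genes in bins that did not pass included Brca2, a DNA repair gene (-0.15), Cdk2, a cell cycle kinase (0.11), and the germ cell gene Nanos1 with Prdx3, a mitochondrial peroxiredoxin (-0.01). After GC correction none of these bins passed, and their values lay between -0.07 and 0.07. In p10 Keniry2022 the bin of Krt8 had -0.14, and the Fgf14 bin was the only 1 of the 21 that passed, beside 4.4% of all bins. It had 0.21 (SE 0.021) and was just past the threshold (adjusted p 0.0499 in limma).

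In the 101 distal windows with the telomere 12-mer the mean level was 3.76 and 3.71 CPM per window at p0 (replicates 1 and 2), 3.69 and 3.70 at p10 Mulas2019, 3.68 and 3.65 at p20 Mulas2019, 3.67 and 3.68 at p10 Keniry2022, and 3.62 and 3.73 at p20 Keniry2022. All 10 values lay within a narrow range, with log2 differences from the p0 library of the same number of -0.05 to 0.01. Both extremes came from p20 Keniry2022, whose replicate numbers are in doubt. At p10 Mulas2019 the differences were -0.03 and -0.00 in these windows, -0.08 and -0.08 in the 6412 distal windows without the 12-mer, and -0.10 and -0.10 in the 644 other windows with it. At p20 Mulas2019 the distal windows with and without the 12-mer had -0.03 and -0.02 against -0.05 and -0.05, at p10 Keniry2022 -0.03 and -0.01 against -0.03 and -0.04, and at p20 Keniry2022 -0.05 and 0.01 against -0.03 and -0.01. The mean GC content of the 3 sets was 42.3%, 43.0% and 43.0%, and 7.94% of the bases of the distal 12-mer windows were unknown, against 2.62% in the distal windows without it. These differences were not tested. The last window with known sequence held 9 to 125 reads per library, and its known bases numbered from 1459 on chromosome 7 to 9022 on chromosome 12.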

How the data were processed

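Genomic DNA of the 10 mESC cultures was sequenced at low coverage as single-end reads. Per the labels and methods, Bowtie2 was used for alignment against mm10. How reads were counted in windows of 10 kb, and with which tool, was not stated in the sources read. The authors deposited log2 values per window and library, which are log2 of whole reads scaled to the largest library, with 0.9 reads in empty windows. Whole reads were recovered for 100% of the values (tolerance 0.1 reads), and 2 mitochondrial windows were left out. No column was unassigned.

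Reads were summed over 5 Mb segments tiled back from each distal end (520 of 557 kept) and over 1 Mb bins (2543 kept). Log2 CPM of all 10 libraries was fitted with limma 3.58.1 in R 4.3.3 (trended prior, 5 group coefficients), and tested by TREAT with a minimum fold change of 1.1 and Benjamini-Hochberg adjustment at 0.05. The cell line was a random block by duplicateCorrelation (correlation 0.207), as in the study's methods, since per the labels a replicate number marks a line (in doubt for p20 Keniry2022). Deviations of same-numbered libraries had a correlation of 0.0054 to 0.71 over 489 autosomal segments for the 6 pairs of groups without p20 Keniry2022, and of -0.866 to 0.00052 for the 4 pairs with it. Without chromosome 3 they were -0.169 to 0.337 and -0.257 to 0.219. P-values measure the spread of single cultures around their group means, pooled over the 5 groups, and rest on 2 lines only. GC correction subtracted a loess curve (span 0.3) over autosomal segments or bins in each library. Windows were corrected by the curve of the 1 Mb bins, held constant outside the GC range of those bins. Summaries used pandas 2.3.3, numpy 2.4.6 and scipy 1.17.1 under Python 3.11.15, and figures matplotlib 3.10.9. The fit without GC correction was tested on simulated data, which held no change with GC content and no line effect. Sequences and genes came from the mm10 (GRCm38) reference.

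The rule for a distal window uses position only, but the distal spans and all lists were chosen with earlier results of these data known. Named were all 13 spans, the highest and lowest 1 Mb bin of each comparison and 34 landmark genes, of which Cyfip1 and Myd88 lay outside the spans. Some landmark genes and sequences are not reported here. Alternatives covered segment length, GC correction, minimum change, centring, block, voom, low windows and libraries left out.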

Additional observations from a re-analysis of the deposited data

Results flagged for a closer look

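In 2 distal segments the change at p10 was not the same under the protocols, by a direct test of the difference (limma's TREAT, adjusted over all 520 segments). On chromosome 17 the log2FC in Keniry2022 minus that in Mulas2019 conditions was -0.28 (adjusted p 4.9e-04), from 0.19 against 0.47. On chromosome 18 it was -0.27 (adjusted p 8.42e-04), from 0.20 against 0.47. Since the same p0 libraries enter both changes, this is the p10 comparison between protocols given above. These are 15.4% of the 13 distal segments, against 19.4% of all 520 segments. After GC correction, and in segments of 10 Mb, neither difference passed the test. Chromosome 15 at p10 (0.19, adjusted p 0.0564) and all 13 segments at p20 did not pass.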

How the results depend on the processing

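With 2 libraries in a group, the estimate of the spread rests on all 10 libraries together. Depth limits the segments little, since the counting error of a distal segment was at most 0.523%, while windows of 10 kb carry larger counting errors. Values moved with GC content. GC correction in bins of 1 Mb, GC correction without a minimum change, leaving out libraries outside the groups compared and the ratio with GC correction at 1 Mb were chosen after the data were seen.

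Under GC correction, with a random or a fixed replicate block, 0% of the 13 distal segments passed from p0 to p10 Mulas2019, between protocols at p10 and between the cultures matched by days. Without it the shares were 61.5%, 15.4% and 61.5%. With the random block 0.0% of all segments passed. Of the 65 distal bins of 1 Mb 0% passed in each (69.2%, 43.1% and 58.5% without it), beside 0.0786%, 0.0393% and 0.0393% of all bins. GC correction with no minimum change gave 15.4%, 0% and 15.4% of the distal segments (21.5%, 3.08% and 20.2% of all segments). The correction turned the sign of these log2FC. From p0 to p10 Mulas2019, chromosomes 7, 9, 10, 13, 14, 15 and 19 had 0.031, 0.031, 0.020, -0.00020, 0.020, 0.014 and 0.010. From p0 to p20 Mulas2019, chromosomes 5, 7, 9, 10, 12, 13, 14 and 15 had 0.0044, 0.0080, 0.013, 0.0092, -0.026, -0.018, 0.016 and 0.025. From p0 to p10 Keniry2022, chromosomes 9, 10, 12, 13, 14, 15, 16 and 19 had 0.0065, 0.0076, -0.0053, -0.0060, 0.020, 0.015, 0.00074 and 0.0044. From p0 to p20 Keniry2022, chromosomes 12, 13, 14, 17 and 19 had -0.0078, -0.034, 0.00032, -0.013 and 0.0070. Between protocols at p10, chromosomes 7, 9, 10 and 19 had -0.032, -0.025, -0.012 and -0.0056. Between protocols at p20, chromosomes 5, 6, 7, 9, 10, 14 and 15 had -0.019, -0.011, -0.010, -0.014, -0.028, -0.016 and -0.039. Between the cultures matched by days, chromosomes 5, 6, 7, 9, 10, 14, 15 and 19 had -0.0025, -0.012, -0.033, -0.031, -0.039, -0.019, -0.027 and -0.0030.

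In segments of 10 Mb the share was 38.5% from p0 to p10 Mulas2019 (41.7% of all segments), 0% between protocols at p10 (13.6%) and 38.5% between the cultures matched by days (31.8%), where chromosomes 13, 17 and 18 no longer passed. In segments of 2.5 Mb it was 7.69% from p0 to p20 Mulas2019 (5.07% of all) and 34.6% between protocols at p10 (25.6%). In bins of 1 Mb it was 13.8% from p0 to p20 Mulas2019 (9.48% of all), 6.15% from p0 to p10 Keniry2022 (4.4%) and 43.1% (30.4%) between protocols at p10.

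With no minimum change, limma called 100% from p0 to p10 Mulas2019 (89.8% of all segments), 84.6% to p20 Mulas2019 (85.2%), 84.6% to p10 Keniry2022 (79.0%) and 46.2% to p20 Keniry2022 (34.4%). It called 100% between protocols at p10 (84.0%), 76.9% at p20 (67.9%) and 92.3% between the cultures matched by days (88.8%). With a minimum log2FC of 1.1 it called 0% in the 3 comparisons with calls, where the largest distal change was 0.47. Centring on the own chromosome gave 15.4% from p0 to p20 Mulas2019 (3.08% of all) and 30.8% between protocols at p10 (19.8%), where voom gave 23.1% (21.5%).

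With the deposited replicate number as a fixed replicate block the share was 15.4% from p0 to p20 Mulas2019 (chromosomes 17 and 18; 5.58% of all segments) and 23.1% between protocols at p10 (20.4%). With a random block and the replicate numbers of p20 Keniry2022 crossed it was 7.69% (chromosome 17; 2.69% of all) and 23.1% (18.7%). The pairing changed no other share by more than 1.5 times.

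Leaving out 1 library at a time gave 61.5% to 61.5% from p0 to p10 Mulas2019 (46.3% to 49.6% of all segments), 0% to 15.4% to p20 Mulas2019 (0% to 4.81%), 0% to 0% to p10 Keniry2022 (0% to 1.73%) and p20 Keniry2022 (0%), 15.4% to 23.1% between protocols at p10 (10% to 23.7%), 0% to 0% at p20 (0%) and 53.8% to 61.5% between the cultures matched by days (35% to 39.8%). For p20 Mulas2019 chromosome 17 passed without either p10 Mulas2019 library, and chromosomes 17 and 18 without either p20 Keniry2022 library. Of the other values for single segments, 1717 kept their direction and side of the threshold, 79 passed newly, 53 no longer passed and 153 turned sign, of which 24 passed before or after, all under GC correction. Of the sign turns, 12 came under other settings and did not pass. Centred on its own chromosome, chromosome 12 had -0.0043, -0.0098, -0.024 and -0.0058 in the 4 comparisons with p0, and centred on the autosomal median -0.000893 at p20 Mulas2019. Chromosome 14 had 0.0024 at p10 Keniry2022 without p0 replicate 2. Between protocols at p20, chromosome 12 had -0.0012 with voom, -0.0018 without p20 Keniry2022 replicate 1 and -0.0062 without p20 Mulas2019 replicate 2 (0.0072, not turned, without its replicate 1), chromosome 14 had -0.012 without the latter and -0.0033 without p20 Keniry2022 replicate 2, and chromosome 10 had -0.0072 without the latter.

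The log2 ratio of distal to other windows depended on how it was computed. For p0, p10 Mulas2019, p20 Mulas2019, p10 Keniry2022 and p20 Keniry2022 in this order, it was 0.096, 0.028, 0.061, 0.067 and 0.083 without windows of low level. It was 0.194, 0.033, 0.104, 0.120 and 0.163 with medians over windows, and 0.068, 0.043, 0.058, 0.059 and 0.064 with chromosomes weighted equally. It was 0.019, 0.022, 0.021, 0.018 and 0.017 after GC correction of windows. After GC correction at 1 Mb, as a difference of mean log2 levels over bins, it was -0.025, -0.023, -0.023, -0.026 and -0.028. The cause was not tested.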

Other observations

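The outermost 1 Mb bins of chromosomes 12 and 14 passed limma's TREAT against p0 at p10 in both protocols and at p20 Mulas2019. On chromosome 12 the bin had a log2FC of 0.52 at p10 Mulas2019, 0.22 at p20 Mulas2019 and 0.21 at p10 Keniry2022, and on chromosome 14 it had 0.48, 0.24 and 0.21. At p10 Keniry2022 both were just past the threshold (adjusted p 0.0493 and 0.0499 in limma). After GC correction the p10 Mulas2019 values were 0.11 and 0.04.

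One distal window stood out in level. The window chr13:119610001-119620000, which overlaps Tmem267, a gene for a transmembrane protein, had a mean of 19.5 CPM, 4.26 times the median distal window (4.57 CPM), and was high in all 5 groups including p0. The next highest were 1.70 times (chr9:123460001-123470000, in Lars2, a mitochondrial leucyl-tRNA synthetase gene) and 1.66 times the median (chr9:124270001-124280000). In the Tmem267 window the libraries of replicates 1 and 2 had 22.6 and 19.1 CPM at p0, 20.7 and 15.4 at p10 Mulas2019, 20.9 and 18.95 at p20 Mulas2019, 21.5 and 16.9 at p10 Keniry2022, and 17.8 and 21.2 at p20 Keniry2022. Replicate 1 was the higher library in the first 4 groups and the lower one in p20 Keniry2022, which is also the group in which the order of the Y reads was opposite. The window was picked after its values were seen, and the difference between the lines was not tested.

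Chromosome 13 also had the most distal windows of very low level. Of the 204 distal windows with a mean under 0.1 of the median autosomal window, 36 were on chromosome 13, and 17 of those 36 had mostly known bases, against 0 to 6 in the other spans.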
